A study of Mus musculus with 15 samples.

Results

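The genes described here are the cytosolic ribosomal protein genes of the mouse embryonic lung, taken as every row of the deposited count tables whose symbol starts with Rpl or Rps, continues with a number and ends there or with a letter a, x, y or l and further digits. The pattern took 80 of 23420 gene rows, 48 of the large subunit (Rpl) and 32 of the small subunit (Rps), and used no measured value. RNA of whole lungs from wildtype embryos of the outbred CD1 strain was sequenced, with several lungs pooled in each of 15 libraries. Lungs taken at E12.5, a day of embryonic development, and kept in culture for 48 h at high transmural pressure gave 3 libraries of 3 lungs each, and lungs cultured likewise at low transmural pressure gave 3 libraries of 6 lungs each. Lungs taken from embryos without culture gave 3 libraries of 6 lungs each at E12.5, 3 of 3 lungs each at E13.5 and 3 of 3 lungs each at E14.5. Transmural pressure is the difference in pressure across the airway wall. The study asked how it bears on branching of the airways.

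The cytosolic ribosome is built from ribosomal RNA and many proteins, in a small subunit that reads the messenger RNA and a large subunit that joins amino acids. Its proteins are needed in matched amounts, and their messenger RNAs are among the most abundant of growing cells. Most of these messenger RNAs begin with a cytosine followed by a run of pyrimidines, the terminal oligopyrimidine or TOP motif, through which the growth-regulating kinase mTOR and the RNA-binding protein LARP1 control their translation. Some mammalian members have a second gene with a distinct product, and nearly all have many processed pseudogenes, which are copies of the messenger RNA in the genome.

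Total counts per library were 40167255 to 44341263 at high pressure, 31843739 to 38288861 at low pressure and 18837343 to 21955244 in the fresh lungs. Whether pools of 1 group share litters or culture runs is not said in the labels, and p-values here rest only on the spread between pools, part of which may be technical. The number of lungs per pool differed between high and low pressure, so pool size and pressure cannot be told apart. Low pressure replicate 3 had at least 1 count for 14637 genes, and the other libraries for 16465 to 16729. Replicate 1 of each fresh stage was set apart from replicates 2 and 3, also in the ribosomal protein genes. The lung epithelial markers Nkx2-1, Epcam, Cdh1 and Sftpc and the mesenchymal markers Foxf1, Tbx4 and Col1a1 were detected in all 15 libraries. No count was listed for transcripts of the mitochondrial genome in any library. Whether these transcripts were among the genes counted was not tested, so their level cannot be read from this. In whole lungs, fewer cells of a type and less RNA per cell cannot be told apart.

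The sequences around the annotated transcription starts of 8 members are shown because the TOP motif is the feature by which this gene family is known. They were picked as 2 starts with and 2 without a run of pyrimidines, both among members higher at high pressure and among members not called, so they are examples and not shares. Each window runs from 10 bases before the start to 20 bases from it, on the transcribed strand, and capitals mark a run of at least 8 pyrimidines that begins with C.
Rps6: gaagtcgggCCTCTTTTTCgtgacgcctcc
Rps12: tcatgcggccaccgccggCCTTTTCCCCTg
Rpl37: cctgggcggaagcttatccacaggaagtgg
Rps23: cggctgggcggggcttcccgcaatgccttg
Rpl22l1: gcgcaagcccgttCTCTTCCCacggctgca
Rpl35: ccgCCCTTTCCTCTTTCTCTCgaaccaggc
Rpl36a: cccaggcaccgcctataaacttccgttgcg
Rpl37a: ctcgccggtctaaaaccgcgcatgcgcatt
The sequences are from RefSeq on GRCm38.p6. Rps6 lay at chr4:86857348-86857377 (minus strand), Rps12 at chr10:23787190-23787219 (minus strand), Rpl37 at chr15:5116603-5116632 (plus strand) and Rps23 at chr13:90923112-90923141 (plus strand). Rpl22l1 lay at chr3:28805498-28805527 (plus strand), Rpl35 at chr2:39005112-39005141 (minus strand), Rpl36a at chrX:134585644-134585673 (plus strand) and Rpl37a at chr1:72711250-72711279 (plus strand). Rps6, Rps12, Rpl37 and Rps23 were higher at high than at low pressure, and Rpl22l1, Rpl35, Rpl36a and Rpl37a did not pass the test. Such a run was in the window of 23 of the 60 members with an entry (38.3%), against 2728 of 27025 genes in all (10.1%). It was present in 16 of the 39 listed members that were higher at high pressure (41.0%) and in 7 of the 17 that were tested and not called (41.2%). The letters CGGAAG, a core recognised by factors of the ETS family, were on either strand within 250 bases before to 50 bases after the start of 40 of the 60 members (66.7%), against 18.8% of all genes. They were present in 28 of the 39 members that were higher (71.8%) and in 10 of the 17 that were not called (58.8%). A match or its lack describes the letters of a start annotated in RefSeq and was not tested against use of that start in these lungs. The windows of Rpl37 and Rpl37a lie wholly before the gene as placed by GENCODE. A run at another start of a member would be missed, in these examples and in the shares.

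Levels differed widely between members. On a scale of CPM (counts scaled to the effective library size of edgeR) per kilobase of the principal transcript, averaged over all 15 libraries, the highest level was that of Rps27a (1423 CPM per kilobase), whose product is a fusion of ubiquitin to a small subunit protein. It was followed by Rps2 (1307), Rps3a1 (1099), Rpl41 (977) and Rpl3 (965 CPM per kilobase). This average spans cultured and fresh lungs, which were normalised separately. Rps27a was first in both cultured groups, while Rps2 and Rpl41 lay above it in each fresh stage. Rpl41 encodes a very short basic peptide and Rpl3 a protein near the site of peptide bond formation. At the other end, 7 members stayed under 5 CPM in every library. Rpl26, a core protein of the large subunit, and Rpl10l, a copy of Rpl10 known for its use in the male germ line, had 0 counts in all 15 libraries, which by counting error alone allows up to 3 counts in a library. Rpl39l had at most 3 counts in any library and Rpl3l, the striated muscle copy of Rpl3, at most 4. Rps27 had 0 to 27 counts, Rpl34 had 0 to 54 and Rpl30 had 7 to 85. Rpl26, Rpl10l, Rpl39l and Rpl3l were too low to be tested in either data set, and Rps27 also in the fresh lungs, which left 76 members tested for pressure and 75 for stage.

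A low count here cannot be read as absent RNA, since most members share sequence with other genes. Of 79 members with an annotated coding sequence, 58 shared at least 80% of its stretches of 50 bases with another gene, in most cases pseudogenes, and the median was 91.3%. All stretches of Rps27 and 87.3% of those of Rpl26 occurred elsewhere, while the figures for Rpl34 and Rpl30 were 72.2% and 83.1%. The sources used here do not say how reads that match several places were counted, which leaves the counts of such members uncertain. Exons of 25 members overlapped another gene of the tables, most often a small nucleolar RNA, and the overlap reached 66.2% of the exonic bases for Rpl35 and 62.3% for Rpl23a. Of the 12 tested members that shared under 50% of their coding stretches, 9 were higher at high pressure (median log2 fold change 0.66). Of the 57 tested members that shared at least 80%, 42 were higher (median 0.83). Both counts stand beside 54 of all 76 tested members (71.1%) and 14.0% of all 14937 genes tested. The difference between the 2 sets was not tested.

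The 80 genes together took 2.83%, 3.11% and 2.98% of all counts in the high pressure libraries, against 2.02%, 1.98% and 1.76% in the low pressure libraries. Every high pressure library lay above every low pressure library. The mean was 2.97% ± 0.137 at high pressure and 1.92% ± 0.140 at low pressure (SD, n = 3 each), a difference of 1.06 percentage points. An exact two-sided permutation test over the libraries gave p = 0.1, the smallest it can give with 3 against 3. In the fresh lungs replicates 1, 2 and 3 had shares of 3.32%, 2.09% and 1.94% for E12.5, 3.73%, 1.83% and 1.66% for E13.5 and 4.05%, 1.76% and 1.78% for E14.5. Replicate 1 was the highest at each stage. Within replicate 1 the share was larger at each later stage, and within replicates 2 and 3 it was smaller at E13.5 than at E12.5. Stage means with the SD of 3 libraries were 2.45% ± 0.760 for E12.5, 2.41% ± 1.15 for E13.5 and 2.53% ± 1.32 for E14.5. The exact test gave p = 0.9 for E13.5 against E12.5, p = 0.7 for E14.5 against E13.5 and p = 1 for E14.5 against E12.5.

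**Figure D1:**
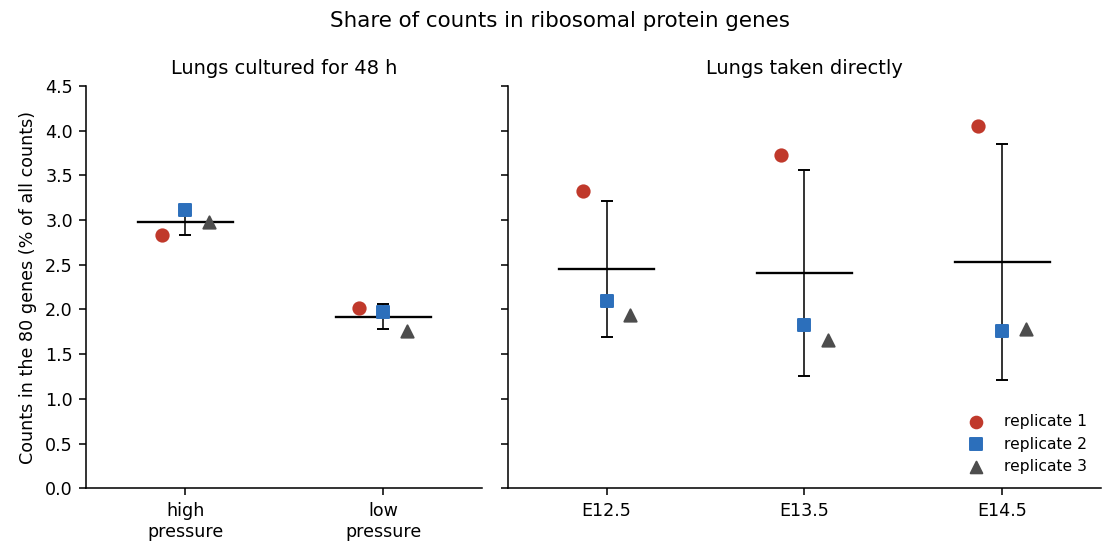
Share of all counts (%, vertical axis) that fell in the 80 genes, by group, with a point for each library (circle, square and triangle for replicates 1, 2 and 3), a line for the mean and a bar for the SD. High pressure libraries sit between 2.83% and 3.11%, above low pressure libraries at 1.76% to 2.02%, and replicate 1 of the fresh stages sits at 3.32% to 4.05%, above replicates 2 and 3 at 1.66% to 2.09%.

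At high pressure most ribosomal protein genes were higher than at low pressure. Of 76 members tested, 54 were higher (71.1%), 0 were lower and 22 did not pass edgeR's quasi-likelihood test at an adjusted p under 0.05. Among all 14937 genes tested the corresponding shares were 14.0% higher and 12.2% lower. The median log2 fold change of the 76 members was 0.74, with quartiles of 0.53 and 0.97, against 0.01 for all genes. For 61 members every high pressure library exceeded every low pressure library, and for 0 members the reverse held. Among all genes tested 25.0% were separated in the first way and 21.8% in the second. By subunit, 24 of 32 small subunit genes were higher (median 0.77) and 30 of 44 large subunit genes (median 0.70), and the difference between the subunits was not tested. The same groups differed in base composition and in markers, and the part of these in the result was not tested. The mean GC content of counted transcripts was 50.2% to 50.3% at high pressure and 49.5% to 49.8% at low pressure, and the median length of counted transcripts was 3252 to 3359 bases at high and 3559 to 3561 bases at low pressure. With offsets for GC content and length 32 members were higher, all among the 54, with a median of 0.37 (background 10.8% higher and 9.66% lower). With all 15 libraries in 1 fit, in which the fresh lungs add to the estimate of the spread, 12 members were higher and 0 lower (background 3.68% higher and 3.82% lower). All 4 epithelial markers were higher at high pressure, with a summed level of 982 to 1082 CPM against 352 to 418 CPM at low pressure. Of the mesenchymal markers Tbx4 and Col1a1 were higher and Foxf1 was lower, and their sum was 2368 to 3035 CPM against 1396 to 1722 CPM. Of 6 erythroid markers tested, Hbb-bh1 and Slc4a1 were lower, and the erythroid share of counts was 0.0370% to 0.0514% at high and 0.0245% to 0.0611% at low pressure. Hba-a1 and Hba-a2 were at 0 in both groups.

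**Figure D2:**
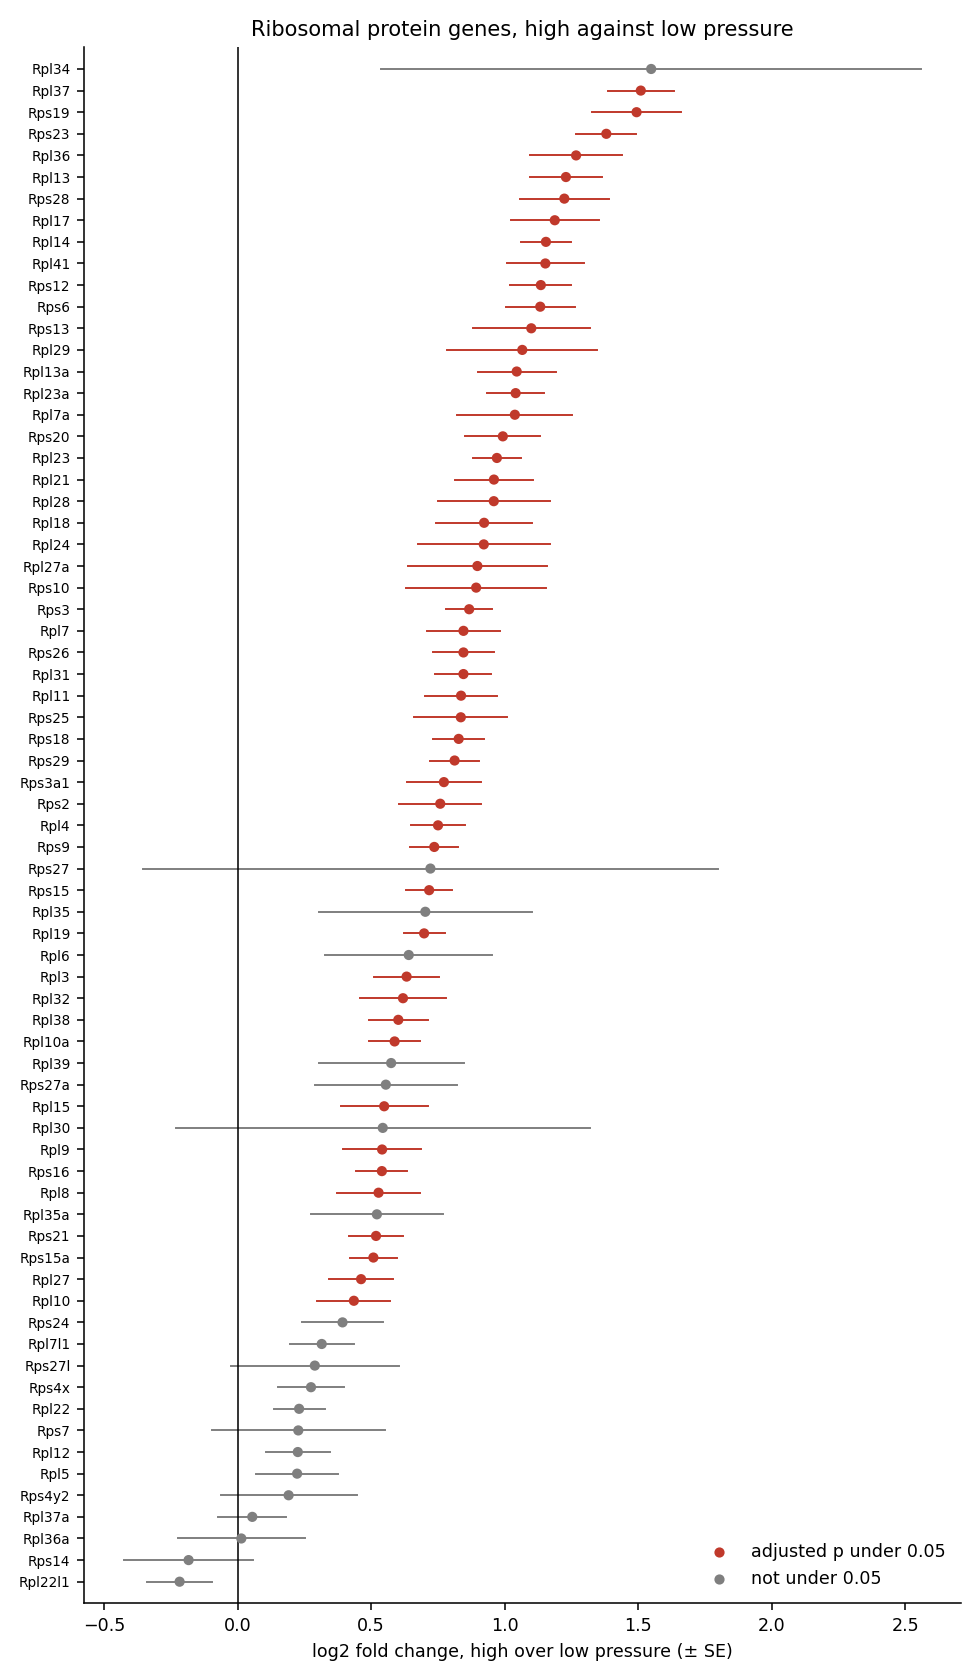
log2 fold change of high over low pressure (horizontal axis, point with a bar of 1 SE) for 71 of the 76 tested genes, sorted, in red where the adjusted p was under 0.05. The 50 called genes drawn lie between 0.44 and 1.51, all right of 0, and only Rps14 and Rpl22l1 lie left of it.

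Among the small subunit genes the highest fold changes were those of Rps19, Rps23 and Rps28. Rps19, which is needed for maturation of small subunit RNA and is mutated in the human disorder Diamond-Blackfan anaemia, had 409, 386 and 396 CPM at high pressure, against 159, 161 and 103 CPM at low pressure. On the log2 scale the difference was 1.49 ± 0.17, where ± gives the SE of edgeR's estimate here and for later genes (adjusted p = 0.00105). Every high pressure library had a higher level than each low pressure library. Rps19 lies at chr7:24884371-24889806, plus strand (GENCODE, GRCm38). Rps23, a protein of the decoding site, had 128, 132 and 112 CPM at high pressure, against 46.7, 43.0 and 52.9 CPM at low pressure. It differed by 1.38 ± 0.11 on the log2 scale (adjusted p = 0.000393; chr13:90922958-90924950, plus strand). Rps28 had 29.6, 27.8 and 29.4 CPM at high pressure, against 12.6, 14.8 and 9.61 CPM at low pressure, and Rps12 had 289.7, 290.4 and 294 CPM at high pressure, against 146, 140.3 and 111 CPM at low pressure. The groups were far apart for both, with log2 fold changes of 1.22 ± 0.17 and 1.14 ± 0.11. Rps6, the substrate of the S6 kinases downstream of mTOR, had 1102, 1114 and 1070.2 CPM at high pressure, against 507, 579.6 and 411 CPM at low pressure. Its fold change was 1.13 ± 0.13 on the log2 scale (adjusted p = 0.00107; chr4:86854660-86857412, minus strand). Rps2, which lies on the path of the messenger RNA, had 1435, 1267 and 1241 CPM at high pressure, against 822, 909 and 599.9 CPM at low pressure. It was 0.76 ± 0.15 higher on the log2 scale (adjusted p = 0.00903). Low pressure replicate 3 was the lowest library for Rps19, Rps28, Rps12, Rps6 and Rps2, but not for Rps23.

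Further small subunit genes that passed the test had log2 fold changes between 0.51 and 1.10. Among them were Rps13 (1.10), Rps20 (0.99), Rps10 (0.89), Rps3 (0.87), Rps26 (0.85), Rps25 (0.84) and Rps18 (0.83). Lower values were those of Rps29 (0.81), Rps3a1 (0.77), Rps9 (0.74), Rps15 (0.72), Rps16 (0.54), Rps21 (0.52) and Rps15a (0.51). The libraries of the groups did not overlap for any of these. Rps13 and Rps20 were lowest in low pressure replicate 3, with 45.5 and 112 CPM, while Rps26 and Rps29 were highest there within the low pressure group, with 96.8 and 77.4 CPM.

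Among the large subunit genes with more than a few counts Rpl37, Rpl36 and Rpl13 had the highest fold changes. Rpl37 had 75.7, 74.1 and 87.7 CPM at high pressure, against 30.1, 29.2 and 24.1 CPM at low pressure, which differed by 1.51 ± 0.12 on the log2 scale (adjusted p = 0.000398). It lies at chr15:5116645-5119140, plus strand. Rpl36 had 48.8, 56.2 and 49.6 CPM at high pressure, against 23.6, 24.6 and 15.9 CPM at low pressure (chr17:56613416-56614243, plus strand). Its log2 fold change was 1.27 ± 0.17 (adjusted p = 0.00193), and the groups did not overlap. Rpl13 had 250.4, 268 and 284 CPM at high pressure, against 120.5, 130.4 and 91.5 CPM at low pressure. Rpl41 had 368, 339 and 369.6 CPM at high pressure, against 129.9, 158 and 197 CPM at low pressure. In Rpl41 low pressure replicate 3 was the highest of its group, and in Rpl37, Rpl36 and Rpl13 it was the lowest. Rpl34, at a higher fitted value than any of these (1.55 ± 1.01; adjusted p = 0.291), had 54, 47 and 31 counts at high and 23, 13 and 0 counts at low pressure.

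Large subunit members known from human disease or from patterning did not all pass the test, and differences between them were not tested. Rpl11, mutated in Diamond-Blackfan anaemia and able to bind the p53 regulator Mdm2, had 345, 395 and 394 CPM at high pressure, against 222, 242 and 171 CPM at low pressure. It was higher by 0.84 ± 0.13 on the log2 scale (adjusted p = 0.00371). Rpl5 shares both roles with Rpl11, and it had 2140.4, 2707 and 2414 CPM at high pressure, against 1967, 1726 and 2529.7 CPM at low pressure. Its groups overlapped, as low pressure replicate 3 lay above high pressure replicates 1 and 3, and its fold change of 0.22 ± 0.15 did not pass (adjusted p = 0.320). Without that library the fold change of Rpl5 was 0.39 ± 0.11 (adjusted p = 0.0149). Rpl5 took 7.72%, 8.64% and 8.03% of all member counts at high pressure and 9.80%, 8.77% and 14.1% at low pressure. Rpl38, whose loss in mice alters translation of homeobox messenger RNAs and the axial skeleton, had 72.3, 76.0 and 73.5 CPM at high pressure, against 43.9, 46.5 and 55.7 CPM at low pressure. It differed by 0.60 ± 0.11 on the log2 scale (adjusted p = 0.00628), with no overlap. Rpl10, which acts late in large subunit maturation, had 185, 217 and 197 CPM at high pressure, against 167, 158 and 118 CPM at low pressure. Its fold change of 0.44 ± 0.14 was the smallest among called members (adjusted p = 0.0473).

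The other 23 large subunit genes that passed the test had log2 fold changes between 0.46 and 1.19. In order these were Rpl17 (1.19), Rpl14 (1.15), Rpl29 (1.07), Rpl13a (1.05), Rpl23a (1.04), Rpl7a (1.04), Rpl23 (0.97) and Rpl21 (0.96), then Rpl28 (0.96), Rpl18 (0.92), Rpl24 (0.92), Rpl27a (0.90), Rpl7 (0.85), Rpl31 (0.85), Rpl4 (0.75) and Rpl19 (0.70), then Rpl3 (0.63), Rpl32 (0.62), Rpl10a (0.59), Rpl15 (0.55), Rpl9 (0.54), Rpl8 (0.53) and Rpl27 (0.46). Rpl4 and Rpl3 are proteins of the core of the large subunit, and both were abundant. Rpl3 had 1792, 2000.1 and 1818 CPM at high pressure, against 1323, 1278 and 1017 CPM at low pressure, and Rpl4 had 1237, 1498 and 1439 CPM at high pressure, against 809.5, 823 and 848 CPM at low pressure. Rpl27a, mutated in a mouse with ataxia and dark feet, had 829, 798 and 827 CPM at high pressure, against 317, 331 and 669 CPM at low pressure. Its low pressure replicates 1 and 2 lay close together and replicate 3 lay between them and the high pressure libraries. The fold change was 0.90 ± 0.26 (adjusted p = 0.0365), and 1.34 ± 0.07 without that library.

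The 22 members that did not pass fell into several kinds. Rps14, of which a copy is lost in a human myelodysplastic syndrome, had 362, 468 and 459.5 CPM at high pressure, against 337, 430.0 and 697 CPM at low pressure. The groups overlapped, and the fitted value was -0.18 ± 0.24 (adjusted p = 0.613). Rpl36a had 427, 544 and 601 CPM at high pressure, against 654, 575 and 328 CPM at low pressure (0.01 ± 0.24; adjusted p = 0.972; chrX:134585654-134588062, plus strand). Rpl37a had 128, 168 and 167 CPM at high pressure, against 147, 136 and 163 CPM at low pressure (0.05 ± 0.13; adjusted p = 0.785; chr1:72711290-72713813, plus strand). In Rpl36a and Rpl37a too the high and low pressure libraries overlapped. Rps7 had 355, 508 and 497 CPM at high pressure, against 504, 469 and 188 CPM at low pressure, with low pressure replicate 3 far below the rest. Rpl35 had 98.6, 112 and 116 CPM at high pressure, against 88.1, 88.7 and 24.0 CPM at low pressure, and Rpl6 had 236, 255 and 248 CPM at high pressure, against 207, 192 and 75.1 CPM at low pressure. In both, the groups were separated but low pressure replicate 3 was far under its group, and adjusted p-values were 0.226 and 0.164. Rpl39 (0.57), Rps27a (0.56) and Rpl35a (0.52) were also lowest in that library. Rps24, by contrast, had 302, 311 and 307 CPM at high pressure, against 205, 199 and 296 CPM at low pressure, with that library the highest of its group. Rpl12 (0.23) and Rps4x (0.27) were likewise highest there within their group. Rps27 (11, 18 and 27 counts against 15, 13 and 0) and Rpl30 (17, 11 and 25 counts against 7, 8 and 14) had too few counts for a close estimate.

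With low pressure replicate 3 left out, 62 members were higher, including all 54 called with it, and 0 were lower (background 22.1% higher and 18.9% lower). Those added included Rps24 (0.60), Rps4x (0.41), Rpl5 (0.39), Rpl12 (0.36), Rpl6 (0.31), Rpl35 (0.30) and Rpl22 (0.27). Without it 3 tested members had a fitted value under 0, namely Rpl36a (-0.23), Rpl22l1 (-0.12) and Rps7 (-0.10), and none of these passed. Rps14 had 0.16 without it, a change of sign. The median over members was 0.69 without it and 0.74 with it.

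Several members are second copies with a distinct product, and each was set beside its parent. Rpl22l1, whose product can take the place of Rpl22 in the ribosome, had 41.4, 43.5 and 38.7 CPM at high pressure, against 47.5, 41.9 and 54.3 CPM at low pressure (-0.22 ± 0.12; adjusted p = 0.219; chr3:28805436-28807424, plus strand). Rpl22, known for its part in T cell development, had 371, 436 and 419 CPM at high pressure, against 330.4, 349 and 366 CPM at low pressure (0.23 ± 0.10; adjusted p = 0.109). Neither passed the test. Per 100 counts of Rpl22 there were 11.2, 9.97 and 9.23 counts of Rpl22l1 at high pressure, against 14.4, 12.01 and 14.8 at low pressure. In the fresh lungs the ratio in replicates 1, 2 and 3 was 17.9, 48.05 and 50.1 for E12.5, 17.6, 50.8 and 50.9 for E13.5 and 18.7, 49.1 and 77.5 for E14.5. The ratio was lower in replicate 1 of every stage than in any other fresh library. Rpl7l1, which takes part in large subunit assembly, had 41.0, 42.1 and 38.9 CPM at high pressure, against 33.3, 36.2 and 28.4 CPM at low pressure (0.31 ± 0.12; adjusted p = 0.0867), and its parent Rpl7 had 396, 464 and 419 CPM at high pressure, against 263, 258 and 190.1 CPM at low pressure (0.85 ± 0.14; adjusted p = 0.00375). Rpl7 passed and Rpl7l1 did not, and the difference between them was not tested. Per 100 counts of Rpl7 there were 10.4, 9.07 and 9.29 counts of Rpl7l1 at high pressure, against 12.7, 14.04 and 14.96 at low pressure. Rps4y2 had 4.72, 3.52 and 5.22 CPM at high pressure, against 4.51, 3.30 and 3.99 CPM at low pressure, and its relative on the X chromosome, Rps4x, had 734, 826 and 799.5 CPM at high pressure, against 592, 594 and 765 CPM at low pressure. Rps27l, a target of p53, had 2.26, 3.75 and 2.99 CPM at high pressure, against 2.24, 2.16 and 2.97 CPM at low pressure, and 10.5, 23.5 and 34.4 CPM in E12.5 lungs, 11.8, 26.1 and 25.9 CPM in E13.5 lungs and 8.11, 28.8 and 34.9 CPM in E14.5 lungs. It was thus lower in every cultured library than in every fresh library, across tables that were normalised separately. The ratio to Rps27 is not given because Rps27 was near 0.

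In the fresh lungs the first feature of the ribosomal protein genes was replicate 1. The log2 ratio of replicate 1 to the mean of replicates 2 and 3 (of CPM + 0.5) had a median over the 75 tested members of 0.72 for E12.5, 1.05 for E13.5 and 1.19 for E14.5, against 0.07, 0.06 and 0.03 for all genes. It was above 0 for 59, 68 and 70 members. The labels do not say what the replicate numbers stand for. Rpl27a had 1003, 333 and 239 CPM in E12.5 lungs, 1234, 237 and 191 CPM in E13.5 lungs and 1464, 222 and 176 CPM in E14.5 lungs, in the order of replicates 1, 2 and 3. Its ratios were 1.83 for E12.5, 2.53 for E13.5 and 2.89 for E14.5, the highest of all members. Rps19 had 405, 135 and 107 CPM in E12.5 lungs, 473, 104 and 87.3 CPM in E13.5 lungs and 589, 101 and 89.4 CPM in E14.5 lungs, with ratios of 1.74 for E12.5, 2.30 for E13.5 and 2.62 for E14.5. Rps6 had 1139, 413 and 385 CPM in E12.5 lungs, 1252, 375 and 337 CPM in E13.5 lungs and 1315, 359 and 330.3 CPM in E14.5 lungs. In each of these genes replicate 1 stood alone, and replicates 2 and 3 lay closer to each other than to it. Rpl41, Rps18 and Rps26 showed the same order, and Rpl11 had 528, 267 and 194 CPM in E12.5 lungs, 571, 194 and 163 CPM in E13.5 lungs and 589, 202 and 192 CPM in E14.5 lungs.

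Of the 75 members, 59 were above 0 in all 3 stages, 11 changed sign between stages and 5 were below 0 in all 3. The 5 were Rps27l, Rps14, Rpl36a, Rpl22l1 and Rps7. Rps14 had 294, 657 and 605 CPM in E12.5 lungs, 310.2, 543 and 535 CPM in E13.5 lungs and 352, 520.2 and 665 CPM in E14.5 lungs. Rpl36a had 235, 513 and 497 CPM in E12.5 lungs, 281, 470.4 and 418 CPM in E13.5 lungs and 294, 502 and 502 CPM in E14.5 lungs. Rpl22l1 had 68.3, 108 and 104 CPM in E12.5 lungs, 73.2, 103 and 93.9 CPM in E13.5 lungs and 80.8, 97.3 and 141 CPM in E14.5 lungs. For these genes replicate 1 was the lowest library at each stage. Rps7 had 358, 464 and 497 CPM in E12.5 lungs, 387, 460.4 and 427 CPM in E13.5 lungs and 415, 456 and 545 CPM in E14.5 lungs. None of the 5 was called at high pressure, against 47 of the 59 and 7 of the 11. Of all genes tested 14.0% were higher there, a share from which 0 of 5 genes cannot be told apart. The difference between these classes was not tested. Rpl38 was among those that changed sign, with 90.1, 99.8 and 99.4 CPM in E12.5 lungs, 105, 102 and 79.3 CPM in E13.5 lungs and 128, 85.0 and 97.4 CPM in E14.5 lungs. Rpl5 had 991, 1421 and 1254 CPM in E12.5 lungs, 1007, 1179 and 1029.8 CPM in E13.5 lungs and 1096, 1163 and 1031 CPM in E14.5 lungs, and its replicate 1 was the lowest library at E12.5 and E13.5. Library properties also differed between replicate 1 and the others, and their part was not tested. The mean GC content of counted transcripts was 49.6% in replicate 1 and 48.2% to 48.4% in replicates 2 and 3, and the median length was 3008 to 3112 bases against 3409 to 3566 bases. Epcam had 262, 117 and 84.7 CPM in E12.5 lungs, 235, 103 and 105 CPM in E13.5 lungs and 339, 101 and 118 CPM in E14.5 lungs, highest in replicate 1. The sum of the 4 epithelial markers was 404 to 663 CPM in replicate 1 and 208 to 302 CPM in replicates 2 and 3. Of the mesenchymal markers Tbx4 had 160.4 to 172 CPM in replicate 1 and 43.5 to 59.9 CPM in replicates 2 and 3, and Col1a1 was highest in replicate 1 at each stage. Foxf1 had 194, 199 and 224 CPM in E12.5 lungs, 205, 222 and 192 CPM in E13.5 lungs and 188, 146 and 178 CPM in E14.5 lungs. Its replicate 1 was the lowest at E12.5, lay between the others at E13.5 and was the highest at E14.5. The mesenchymal sum was 1054 to 1498 CPM in replicate 1 and 672 to 1165 CPM in replicates 2 and 3. Nkx2-1 had 72.9, 87.0 and 81.4 CPM in E12.5 lungs, 62.8, 93.3 and 94.3 CPM in E13.5 lungs and 89.8, 88.2 and 108 CPM in E14.5 lungs, and its replicate 1 was the lowest at E12.5 and E13.5 and lay between the others at E14.5.

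**Figure D3:**
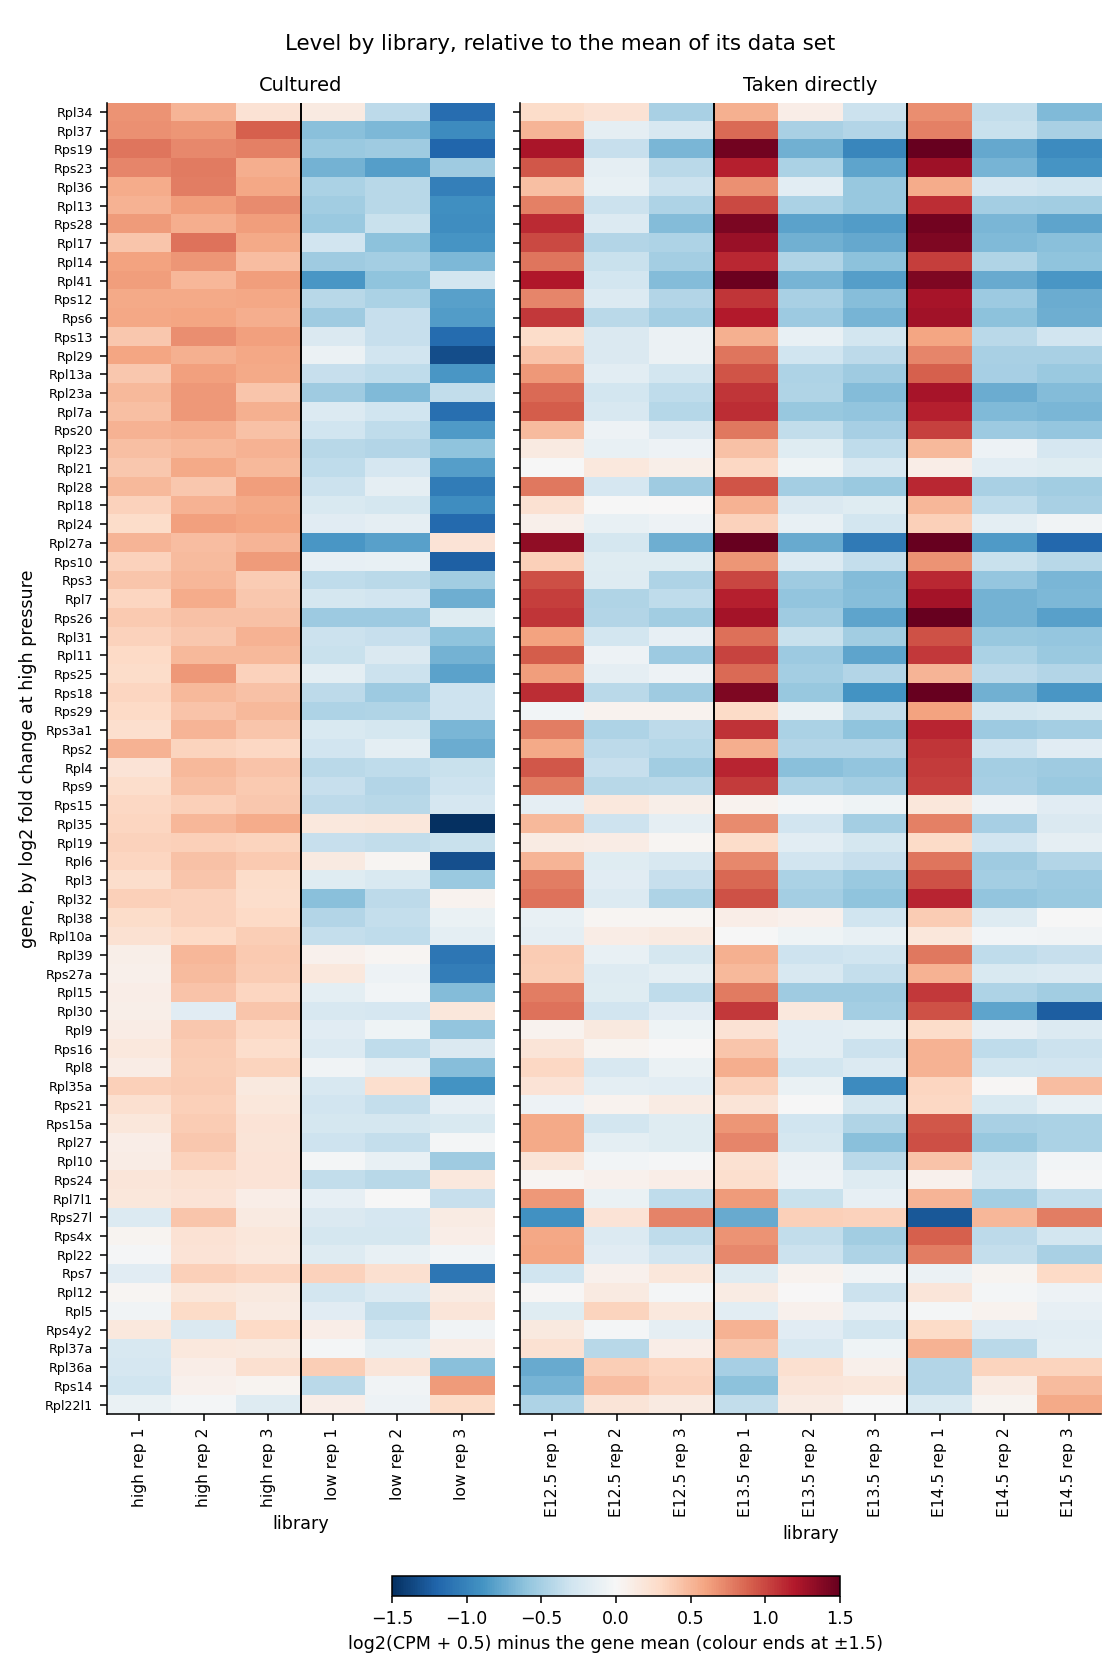
Level of 70 of the 75 genes tested in both data sets in each library, as log2(CPM + 0.5) minus the gene's mean over the libraries of its data set (colour, red higher, blue lower, ending at ±1.5), with cultured libraries left and fresh libraries right. Rows run from the highest to the lowest fold change at high pressure. Replicate 1 of each fresh stage is red for most genes and blue for Rps27l, Rpl36a, Rps14 and Rpl22l1.

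Between stages 0 of 75 members passed in either direction in E13.5 against E12.5, E14.5 against E13.5 or E14.5 against E12.5, and 0 had an unadjusted p under 0.05 (edgeR). Among all 14242 genes tested 0% were called in each of these comparisons as well, so the members' count of calls is that of the background. This does not hold for the unadjusted p. Of all genes 977 were under 0.05 in E14.5 against E13.5 and 1328 in E14.5 against E12.5, with fewer in E13.5 against E12.5. The members thus lay below the background by that measure, a difference that was not tested. DESeq2 also called 0 members, where of all genes it called 0% in E13.5 against E12.5, 1.51% higher and 0.188% lower in E14.5 against E13.5, and 2.27% higher and 0.662% lower in E14.5 against E12.5. The libraries of any 2 stages overlapped for all 75 members. Among all genes tested 1.59% were separated upward and 1.52% downward in E13.5 against E12.5, 7.84% and 4.14% in E14.5 against E13.5, and 8.76% and 5.33% in E14.5 against E12.5. The median log2 fold change of members was 0.00 for E13.5 against E12.5, 0.04 for E14.5 against E13.5 and 0.03 for E14.5 against E12.5. Samples with the same replicate number deviated together in this data set. With the replicate number as a block 1 member passed: Rps2 was higher at E14.5 than at E13.5 (log2 fold change 0.31, SE 0.08, adjusted p = 0.0496) and than at E12.5 (0.29, SE 0.08, adjusted p = 0.0460). Under the block 4.15% and 7.33% of all genes were higher in these comparisons and 1.86% and 3.63% lower. Rps2 had 2022, 1038 and 1012 CPM in E12.5 lungs, 1994, 1010.2 and 1008 CPM in E13.5 lungs and 2885, 1103 and 1215 CPM in E14.5 lungs. Its E14.5 level was the highest within each replicate number. The change from E13.5 to E14.5 minus that from E12.5 to E13.5, tested as a contrast, passed for 0 members, and Rps2 had the lowest adjusted p under the block, at 0.627.

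The direction of the stage difference depended on the replicate number. For E14.5 over E12.5 the log2 ratio was above 0 for 72 of 75 members in replicate 1 (median 0.27), for 5 in replicate 2 (median -0.26) and for 12 in replicate 3 (median -0.19). For E13.5 over E12.5 it was above 0 for 73 members in replicate 1 (median 0.22), for 8 in replicate 2 (median -0.15) and for 2 in replicate 3 (median -0.22). Replicates 2 and 3 thus agreed in sign for most members and replicate 1 went the other way. For E14.5 over E13.5 the counts above 0 were 55, 16 and 41. In a fit of replicates 2 and 3 alone 6 members were lower and 0 higher at E14.5 than at E12.5 (background 2.55% lower and 5.32% higher), with a median of -0.21 over the 75. These were Rpl18 (-0.43), Rps20 (-0.42), Rpl31 (-0.38), Rps16 (-0.37), Rpl23a (-0.37) and Rpl7a (-0.34), with adjusted p-values of 0.0197 to 0.0488. Rpl18 had 182, 155 and 156 CPM in E12.5 lungs, 224, 134 and 137 CPM in E13.5 lungs and 219, 119 and 111 CPM in E14.5 lungs. Rps20 had 362, 246 and 224 CPM in E12.5 lungs, 449.9, 202 and 184 CPM in E13.5 lungs and 529, 179 and 173 CPM in E14.5 lungs. In both genes replicates 2 and 3 were lower at E14.5 than at E12.5 and replicate 1 was higher. Heart muscle markers took 0.0240% to 0.110% of counts at E14.5 and 0.000519% to 0.00293% at E12.5, and erythroid markers 0.0513% to 0.142% at E14.5 and 0.291% to 0.349% at E12.5. Their part in the stage values was not tested.

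**Figure D4:**
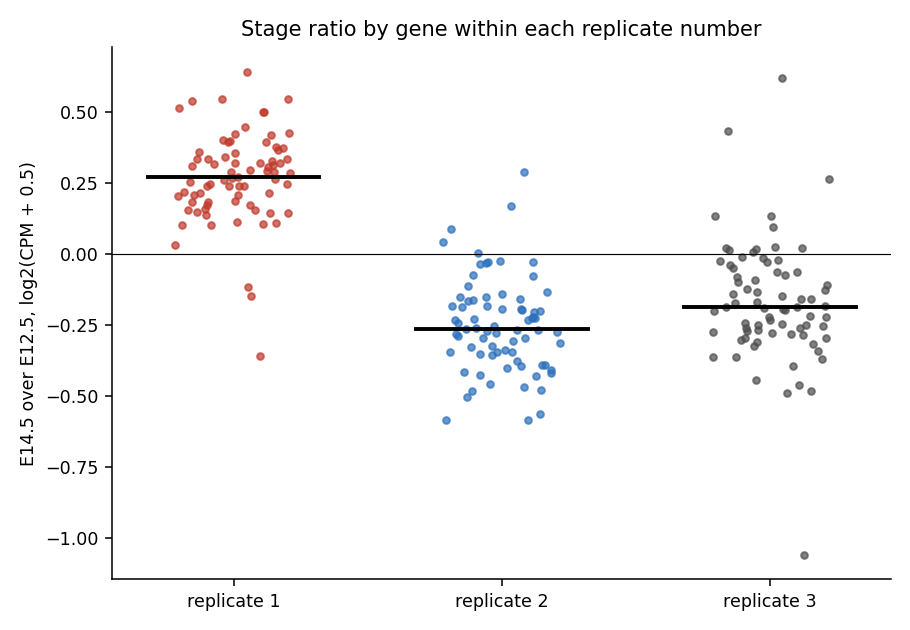
log2 ratio of E14.5 over E12.5 (CPM + 0.5, vertical axis) for each of the 75 genes (points) within replicates 1, 2 and 3, with the median as a line. The medians are 0.27, -0.26 and -0.19, and 72, 5 and 12 genes lie above 0.

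Among members with a mean of at least 5 CPM, those with the largest fitted differences between E14.5 and E12.5 did not pass the test without the block. Rps2, described above, had the highest value, at 0.35. Rps25 (-0.22) had 306, 179.7 and 187 CPM in E12.5 lungs, 356, 139 and 146 CPM in E13.5 lungs and 282, 149.7 and 145 CPM in E14.5 lungs. Rpl21 (-0.16) had 193, 217 and 206 CPM in E12.5 lungs, 241, 185 and 164 CPM in E13.5 lungs and 208, 173 and 172 CPM in E14.5 lungs. Rpl7l1 (-0.17) had 115, 68.1 and 55.7 CPM in E12.5 lungs, 114, 57.9 and 67.1 CPM in E13.5 lungs and 104, 51.2 and 56.7 CPM in E14.5 lungs. For these the E14.5 libraries were on average the lower ones. Rpl35a (0.30) had 113, 88.0 and 87.6 CPM in E12.5 lungs, 124, 91.2 and 50.5 CPM in E13.5 lungs and 122, 98.8 and 135 CPM in E14.5 lungs, with replicate 3 lowest at E13.5 and highest at E14.5. Rpl27a (0.24) and Rps19 (0.27) were higher at E14.5 in replicate 1 and lower at E14.5 in replicates 2 and 3. Among other named members Rpl3 had 1769, 927 and 817 CPM in E12.5 lungs, 1895, 747 and 709 CPM in E13.5 lungs and 2015, 730.0 and 715 CPM in E14.5 lungs, and Rpl10 had 423, 362 and 368 CPM in E12.5 lungs, 436, 349 and 280.2 CPM in E13.5 lungs and 499, 309.6 and 361 CPM in E14.5 lungs. Rpl22 had 381, 225 and 208 CPM in E12.5 lungs, 417, 203 and 184 CPM in E13.5 lungs and 433, 198 and 182 CPM in E14.5 lungs.

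The members that stood out in replicate 1 of the fresh lungs were in part those that were higher at high pressure. Across the 75 members the difference between high and low pressure and the mean replicate 1 ratio had a Pearson correlation of 0.64 and a Spearman correlation of 0.60. Across the 14017 genes tested in both data sets these were 0.47 and 0.51. Genes are not independent replicates, and each axis rests on the same few libraries for every gene, so the values are a description. Rps19 was at the upper end of both measures, with 1.52 for pressure and 2.22 for replicate 1. Rpl22l1 and Rps14 were below 0 in both. Within members the replicate 1 ratio had a Pearson correlation of 0.11 with GC content and 0.11 with log2 transcript length, and the pressure difference 0.27 and -0.04.

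**Figure D5:**
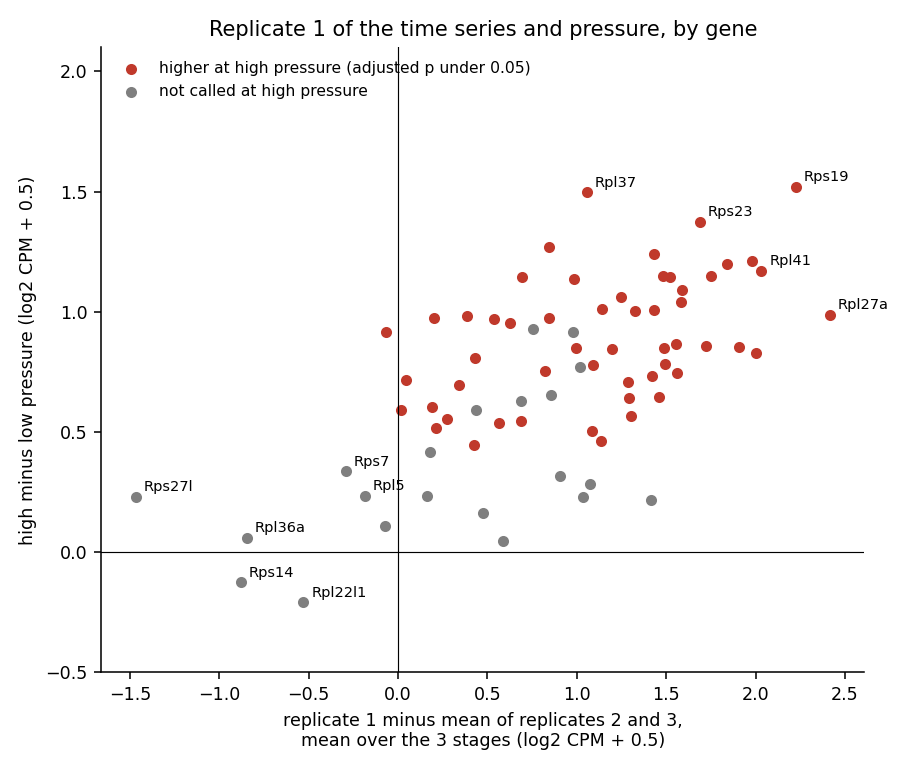
For each of the 75 genes, the difference between high and low pressure (vertical axis) against the ratio of replicate 1 to replicates 2 and 3, averaged over the 3 fresh stages (horizontal axis), both in log2(CPM + 0.5). Genes higher at high pressure are red, and Rps27l, Rps14, Rpl36a, Rpl22l1 and Rps7 lie left of 0 at every stage.

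Other genes of the ribosome and of translation were compared by lists. Of 8 ribosomal protein genes outside the symbol pattern 5 were higher at high pressure (62.5%, against 14.0% of all genes) and 0 lower (median 0.89), among them Rplp2 (1.32), Fau (1.29), Gnb2l1 (0.91) and Rpsa (0.87). Rpl36al (0.79), Rplp1 (0.25) and Rplp0 (0.25) did not pass. Gnb2l1 encodes the scaffold RACK1 and Fau a fusion of a ubiquitin-like protein with a ribosomal protein. Of 20 translation factors and other genes with TOP messenger RNAs 9 were higher (45.0%) and 0 lower (median 0.35), among them the elongation factor subunit Eef1d (0.83), the nascent chain factor Naca (0.91) and the initiation factor subunit Eif3h (0.84). No gene of either list was lower.

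Genes that help to build ribosomes without being part of them were called at shares near those of all genes (14.0% higher and 12.2% lower). Of 36 genes of ribosome assembly and RNA polymerase I 6 were higher and 6 lower, 16.7% each (median 0.00). The higher ones included the shared polymerase subunit Polr1d (0.86) and the RNA methyltransferase Fbl (0.38). The lower ones included Mdn1 (-0.71), an ATPase that removes assembly factors, Dkc1 (-0.54), the pseudouridine synthase, and the polymerase subunit Polr1a (-0.33). Among 76 mitochondrial ribosomal protein genes 12 were higher (15.8%) and 1 lower (median 0.37), also near the share of all genes for higher calls, with Mrpl50 (-0.53) as the lower one. Of 11 tested host genes of small nucleolar RNAs, Gas5 (0.53) and Snhg8 (0.83) were higher. Among 15 regulators in the mTOR and MYC pathways 13.3% were lower and 6.67% higher, the share of lower calls being near that of all genes. The transcription factors Mycn (-0.72) and Myc (-0.68) were lower, the kinase Rps6kb2 (0.89) was higher and 12 did not pass. Of 6 rows of ribosomal protein pseudogenes 3 were tested and 0 passed, each with a mean under 5 CPM in both cultured groups. Between stages 0 genes of any list passed without the block. With the block Bop1, Heatr1 and Wdr43, all of them assembly factors, were lower at E14.5 than at E13.5 and than at E12.5. Mycn (-0.59), Gas5 (-0.33) and Nap1l1 (-0.29) were lower at E14.5 than at E12.5 as well, and 0 genes of these ribosome, translation and regulator lists were higher. Of all genes 1.86% were lower in E14.5 against E13.5 and 3.63% in E14.5 against E12.5 under the block.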

How the data were processed

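Whole-lung RNA was sequenced in 15 libraries. The submitters' processing notes name cutadapt 1.6, TopHat with Bowtie 1.1.1, HTSeq and build mm10. No source used here gives the annotation, the strand setting or the treatment of reads with several matches. The authors deposited raw counts per gene in 2 tables, cultured and fresh lungs, and these counts were used. The other 6 deposited tables (normalized or log2 values) were not used.

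In R 4.3.3, edgeR 4.0.16 was run on each table separately, with TMM scaling, filterByExpr, robust quasi-likelihood F-tests and Benjamini-Hochberg adjustment across all tested genes (threshold 0.05). The SE is the log2 fold change divided by the root of F. CPM is the count scaled to the TMM library size. The fits were checked on simulated counts. Transcripts come from GENCODE M21, start-site sequences from RefSeq. Alternatives were DESeq2 1.42.0, other scaling, filters, offsets and samples.

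The genes given in every library are second copies and their parents, the 4 members (mean level 5 CPM or more) at each end of the fold changes for pressure and for the latest against the earliest stage, and 8 members known from disease or patterning. Others were named for a result they bear on. Members and lists were chosen with earlier results of these data known. Same-numbered fresh libraries deviated together (r of 0.397 to 0.838 in 9 pairs, against -0.736 to 0.625 in 18 other pairs), so the block is given beside those results. The meaning of the numbers is not in the labels. Cultured libraries did not (-0.0124 to 0.0461). No 2 libraries of a group agreed within sampling noise. Some genes are counted in the totals but not reported here by name, and plots that label genes leave them out.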

Additional observations from a re-analysis of the deposited data

How the results depend on the processing

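For high against low pressure the 54 members called higher were 53 with DESeq2 and 53 with median-of-ratios scaling, 54 without the filter on low counts and 55 with the replicate block. They were 32 with offsets for GC content and length and 12 when all 15 libraries shared 1 fit (background 3.68% higher), where the fresh replicates enter the estimate of the spread. Leaving out each library in turn gave 41 to 62. In each of these settings 0 members were lower, and Rpl19, Rpl21, Rpl23, Rpl36, Rpl37, Rps13 and Rps29 were higher in all 12. Between stages, the count of members higher was 1 (Rps2) for E14.5 against E13.5 and for E14.5 against E12.5 both with the replicate block and with a term for replicate 1. Of all genes 4.15% and 7.33% were higher with the block and 4% and 7.42% with the term. With replicates 2 and 3 alone 6 members were lower for E14.5 against E12.5 (background 2.55%). All other settings gave 0, as did E13.5 against E12.5 throughout. The replicate block changed no other count of members by over 1.5 times. Among the other lists at high pressure, Gas5 (adjusted p = 0.0588) and Slc4a1 (adjusted p = 0.0655) no longer passed under the block. Genes called higher went from 9 to 7 among translation factors and other TOP genes and from 12 to 8 among mitochondrial ribosomal proteins. Among assembly genes 5 rather than 6 were higher and 4 rather than 6 lower. Among ribosomal proteins outside the pattern 6 rather than 5 were higher (75.0%), and the heart muscle marker Myh6 was newly higher (adjusted p = 0.00276). Between stages the block added calls in several lists. The difference in share between high and low pressure was 0.976 to 1.13 percentage points with each library left out, and 1.14 with 7 further ribosomal protein genes. The stage differences changed sign with the library left out: -0.707 to 0.393 for E13.5 against E12.5, -0.636 to 0.787 for E14.5 against E13.5 and -0.680 to 0.517 for E14.5 against E12.5. Counts of 0 to 85 per library limit Rps27, Rpl34 and Rpl30. The causes of these changes were not tested.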
